A study of Mus musculus with 1 sample.

Results

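Long noncoding RNAs (lncRNAs) were examined for their poly(A) tails in wild-type mouse cells of the ICR strain, 24 h after embryonic stem cells (ESCs) had begun to form epiblast-like cells (EpiLCs). EpiLCs are on the way from naïve to formative pluripotency and were grown here in N2B27 medium with activin A, bFGF and a serum replacement. The tails had been read by PAIso-seq, in which whole transcripts with their tails are copied into circular cDNA and read many times around the circle on the PacBio platform. The single sample held 2 replicates marked by barcodes, numbered 1 and 2 by barcode because the labels do not assign them. The study calls its replicates independent but does not state that they were separate cultures. Cells without the deadenylase Cnot8, the subject of the study, were not analysed here. Members were all nuclear genes that GENCODE vM21 classes as lincRNA, antisense, processed transcript, bidirectional promoter lncRNA or sense intronic, except the ribosomal-repeat loci Gm42418 and Gm26917. A read was used when it had been passed at least 7 times. This gave 524 lncRNA genes of the 12816 nuclear genes with reads, and 3229 lncRNA reads (1204 and 2025 in replicates 1 and 2) of 701976. The rule for members uses gene types and passes, not tail values, but it and the gene lists below were set with earlier results of these data known.

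Most lncRNAs, like mRNAs, are made by RNA polymerase II, cleaved downstream of a poly(A) signal (most often AATAAA in the DNA) and given a tail of A bases. The tail is bound by poly(A)-binding proteins, and its removal by deadenylases such as the Ccr4-Not complex often precedes decay. Some noncoding RNAs end in other ways. Malat1 is cut by the tRNA-processing enzyme RNase P next to an A-rich stretch that is encoded in the genome and folds into a triple helix, and Bc1 is made by RNA polymerase III. The lncRNAs also differ in where they stay in the cell: some are kept at chromatin or in nuclear bodies, others are exported, and host genes of small nucleolar RNAs (snoRNAs) carry the small RNAs in their introns.

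By gene type, lincRNAs were the largest class, with 258 genes and 1949 reads, or 60.4% of member reads. Antisense genes (137 genes, 405 reads), processed transcripts (95 genes, 762 reads), bidirectional promoter lncRNAs (25 genes, 101 reads) and sense intronic genes (9 genes, 12 reads) made up the rest. The reads were spread thinly: 257 of the 524 genes had 1 read, 467 had fewer than 10, and 57 had at least 10. Counts of genes below are over those 57, and the gene tail length is the geometric mean over the reads of both replicates, or of 1 where a replicate is named. The 9 genes with exactly 10 reads had gene tails of 38.5 to 128 nt with a median of 83.1 nt, and the 7 genes with 9 reads, just outside this limit, 60.6 to 150 nt with a median of 79.4 nt. LncRNAs took 0.489% of nuclear reads in replicate 1 and 0.444% in replicate 2.

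Replicate 2 was the deeper library, with 455660 nuclear reads against 246316. Markers of pluripotent cells were read in both replicates, at 5915 and 2030 rpm summed over 5 genes. Here rpm is reads scaled to 1000000 nuclear reads of a replicate. Formative markers such as Dnmt3b and Otx2 summed to 983 and 790 rpm. Naïve markers summed to 617 and 902 rpm, most of it from Zfp42 (524 and 816 rpm). The naïve sum was thus below the formative sum in replicate 1 and above it in replicate 2, though the sums cover different numbers of genes. Of the fibroblast markers, Col1a1, Col1a2 and Lum had no reads and Vim, which many cultured cells express, had 118 and 70.2 rpm. Endoderm markers had 0 and 1 reads, and the neural markers Pax6 and Sox1 had 5 and 0. The replicates differed most in Dppa5a, at 4640 and 920 rpm. Replicate 2 held more tails of 1 nt, in protein-coding reads (0.520% and 1.54%) as in lncRNA reads (2.91% and 6.57%). What part these differences have in the lncRNA values was not tested. Main values are therefore given per replicate, and values without a replicate are over the reads of both. Reads carry no molecular identifiers, and Wilson intervals (95%) therefore cover counting error only.

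Over reads, the median tail of lncRNAs differed from that of protein-coding genes by no more than the spread between replicates. The lower quartile of lncRNA reads was shorter in both replicates when all member genes were counted. LncRNA reads had a median tail of 93 nt and 86 nt in replicates 1 and 2, or 89.5 nt ± 4.95 (SD, n = 2), against 91 nt in each replicate for protein-coding reads. The difference in medians, 2 nt in replicate 1 and -5 nt in replicate 2, was within the spread between replicates. The lower quartile was 48 and 41 nt for lncRNAs and 53 nt in both replicates for protein-coding reads. Without Malat1, AI506816, Kcnq1ot1 and Bc1, picked after their values were seen, the lncRNA quartile was 54 and 48 nt. It was then shorter than that of protein-coding reads in replicate 2 only. Leaving out genes with mostly short tails raises a quartile by design, and protein-coding genes were not trimmed in the same way. Tails over 150 nt made up 20.1% (17.9% to 22.5%) and 16.1% (14.6% to 17.8%) of lncRNA reads, against 16.1% and 15.3% of protein-coding reads. The lncRNA share was thus higher in replicate 1, whereas the interval of replicate 2 held the protein-coding value. The longest lncRNA tail had 334 nt.

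**Figure D1:**
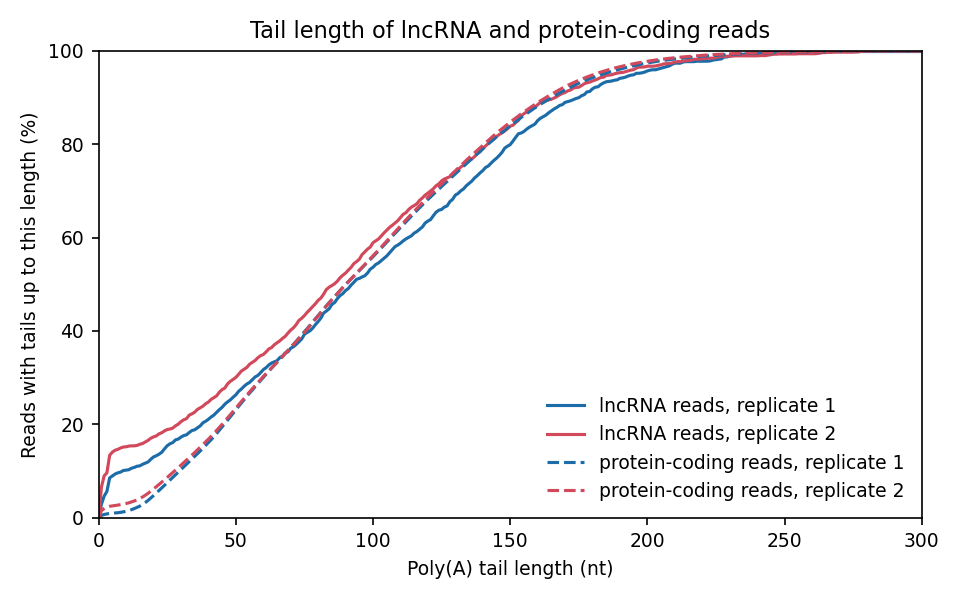
Cumulative share of reads (%, y axis) by poly(A) tail length (nt, x axis) for lncRNA reads (solid lines, 1204 and 2025 reads) and protein-coding reads (dashed lines), replicate 1 in blue and replicate 2 in red. The lncRNA curves start higher, with 8.97% and 14.1% of reads at 5 nt or less, and cross the protein-coding curves at longer tails, later in replicate 2 than in replicate 1.

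The largest difference lay in very short tails. Tails of 1 to 5 nt made up 8.97% of lncRNA reads in replicate 1 (7.48% to 10.7%, 108 reads) and 14.1% in replicate 2 (12.6% to 15.7%, 285 reads), against 0.988% and 2.55% of protein-coding reads. The lncRNA share was higher by 9.75 percentage points ± 2.50 (SD, n = 2), more than the spread between replicates. Without tails of 1 nt, the shares of 2 to 5 nt were 6.06% and 7.51% for lncRNAs and 0.469% and 1.02% for protein-coding reads. The replicates were thus closer and the order of the classes was kept. These 393 reads came from 144 lncRNA genes, and 149 of them (37.9%) came from Malat1 (93 reads), AI506816 (25), Bc1 (21) and Kcnq1ot1 (10). When these 4 genes, picked after their values were seen, were left out, 5.73% and 9.39% of lncRNA reads still had 1 to 5 nt. Genes with fewer than 10 reads held 179 of the short tails, in 117 genes, and 30 of the 57 genes with at least 10 reads held none. Among these 57 genes, 14 (24.6%) had 1 to 5 nt in at least 10% of their tails. Over all 7146 nuclear genes with at least 10 reads, 8.54% did. The 2 sets were not matched by read number, and a gene with 10 reads is counted with 1 such tail.

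Malat1, which resides in nuclear speckles, carried the shortest tails of the 19 lncRNA genes with at least 10 reads in each replicate. It lies on chromosome 19 of GRCm38 (mm10), 5795690 to 5802672, minus strand. Of its 97 reads, 93 (95.9%, 89.9% to 98.4%) had 1 to 5 nt, and 70 (72.2%, 62.5% to 80.1%) had the same tail of 4 A bases. This tail was seen in 28 of 31 reads of replicate 1 and 42 of 66 of replicate 2, whereas a single A was seen in 1 and 18 reads. The 4 tails over 5 nt had 19, 22, 104 and 175 nt. Its gene tail came to 4.80 nt and 2.76 nt in replicates 1 and 2 (3.78 nt ± 1.44, SD, n = 2), and the median of the reads was 4 nt in both. The 4 A bases of most tails have the same letters as the end of an A-rich stretch inside the gene, which the genome (chr19:5795962-5796012, minus strand) and 3 of the tails show, with the encoded stretch of 18 letters or the match to it in capitals:
Malat1 genome: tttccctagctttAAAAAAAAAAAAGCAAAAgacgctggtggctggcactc
Malat1 tail, 70 reads: AAAA
Malat1 tail, 19 reads: A
Malat1 tail, 1 read of 22 nt: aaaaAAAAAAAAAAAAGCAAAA

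The stretch occurs once in the gene. Its 12 A bases, GC and 4 A bases are followed, after position 5795982, by 292 further annotated bases of the locus, which begin with gacgctgg, the known start of the tRNA-like RNA (mascRNA) that is cut from Malat1. The tail of 22 nt ended in all 18 letters of the stretch, behind 4 further A bases. In the deposited tails, A bases that the genome encodes next to the end of an alignment are part of the tail, and the table gives no position of the alignment. Among the 300 tails of 1 to 5 nt of all other lncRNAs, 13.7% were 4 A bases, and among those of protein-coding genes 6.62%.

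Bc1, a small RNA polymerase III transcript best known from the cytoplasm of neurons, had the next shortest gene tail of those 19 genes. It was read 35 times in replicate 1 and 16 times in replicate 2, or 142 and 35.1 rpm. The gene tail was 11.2 nt and 11.6 nt (11.4 nt ± 0.272, SD, n = 2), yet the reads ranged from 1 to 178 nt. Of the 51 tails, 21 (41.2%, 28.7% to 54.8%) had 1 to 5 nt, 34 had at most 30 nt and 8 were over 90 nt. The whole gene (chr7:144914470-144914637, plus strand, 1 exon) is shown because its own A-rich part bears on the tails. Runs of at least 4 A bases are in capitals, and in the 47-nt tail the capitals mark letters after the leading A bases that are found in the gene in the same order, and in the other tails the bases other than A:
Bc1 gene: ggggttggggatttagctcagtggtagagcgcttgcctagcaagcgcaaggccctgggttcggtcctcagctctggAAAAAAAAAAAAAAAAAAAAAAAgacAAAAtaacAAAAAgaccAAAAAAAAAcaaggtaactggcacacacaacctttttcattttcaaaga
Bc1 tail, 47 nt: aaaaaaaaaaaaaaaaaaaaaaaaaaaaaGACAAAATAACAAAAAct
Bc1 tail, 14 nt: aaaaaaaCaaGaaa
Bc1 tail, 9 nt: aaaaaaCTa

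The longest A run of the gene has 23 bases, and 40 bases follow the last run. A base other than A was held by 13 of the Bc1 tails, and 2 of these were found whole, letter for letter, within the gene. The 47-nt tail shared a run of 39 letters with it, beginning inside its 29 leading A bases. These 2 tails have 6 and 7 nt, and the 47-nt tail has more leading A bases than the gene's longest run and ends in letters that differ from the gene. Whether such letters were copied from the gene was not tested. A stretch of 96 nt of Bc1 is 96.9% identical to a transcript of Cnot3 (57.1% of Bc1, which belongs to the repeated ID elements), so its reads may also be shared with other copies.

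**Figure D2:**
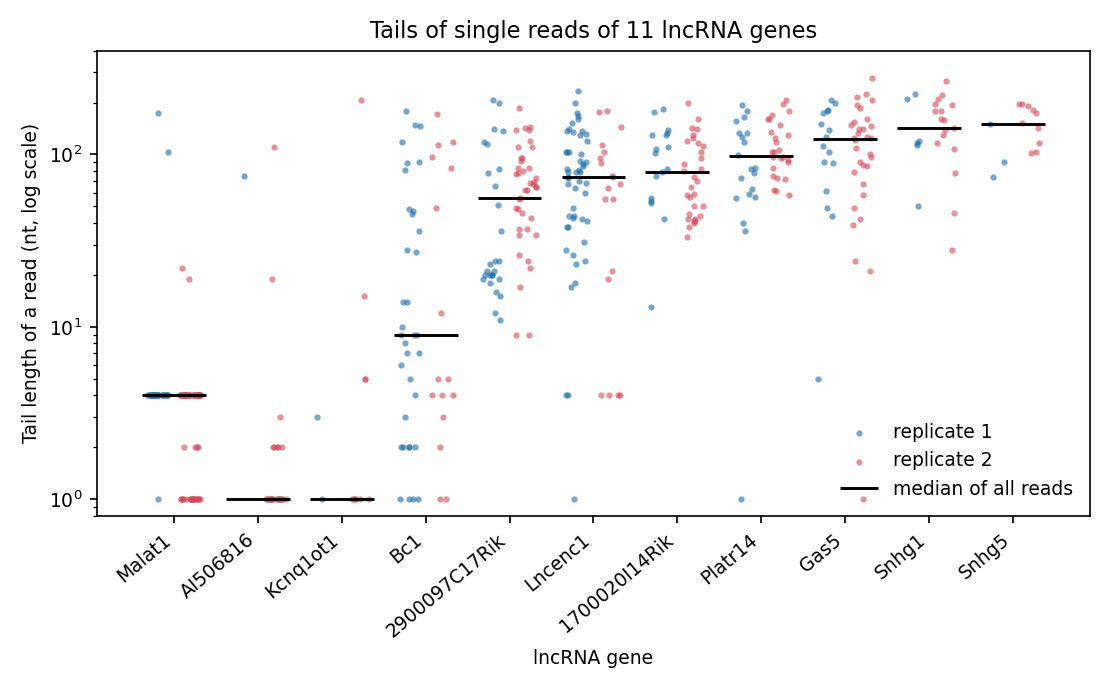
Tail length of each read (nt, log scale, y axis) for 11 lncRNA genes (x axis), replicate 1 in blue and replicate 2 in red, with a black line at the median of all reads. Malat1 sits at 4 nt and AI506816 and Kcnq1ot1 at 1 nt, Bc1 spans 1 to 178 nt, and most reads of Gas5, Snhg1 and Snhg5 are over 90 nt.

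Nuclear and chromatin lncRNAs other than Malat1 were read too seldom for most to have a gene tail. Of 18 listed genes of this kind, 12 had reads, 170 in all, and 4 had at least 10. The median tail of the list was 4 nt in each replicate, and 115 reads (67.6%, 60.3% to 74.2%) had 1 to 5 nt, but Malat1 supplied 93 of these. The other 11 genes had a median of 38 nt over 73 reads, 81.5 nt in replicate 1 (20 reads) and 19 nt in replicate 2 (53 reads), and 4 of 20 and 18 of 53 of their tails had 1 to 5 nt. Kcnq1ot1 (chromosome 7, 143203458 to 143296549, minus strand, 1 exon), the antisense RNA that silences its imprinted domain, had 10 of 12 tails at 1 to 5 nt, 2 of 2 in replicate 1 and 8 of 10 in replicate 2. Rian, an imprinted host of snoRNAs, had a gene tail of 45.7 nt in replicate 1 (5 reads) and 19.4 nt in replicate 2 (13 reads). Tug1, which acts in the nucleus and is also exported, had 112.8 nt (5 reads) and 63.1 nt (7 reads) and no tail under 8 nt. Among genes with few reads, all 4 reads of the X-linked Firre had a tail of 1 nt, and the single read of Xist had 51 nt.

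AI506816 (chromosome 5, 23698296 to 23712667, minus strand) was like Malat1 in its short tails but not in its replicates. It had 1 read of 75 nt in replicate 1 and 27 reads in replicate 2, of which 25 had 1 to 5 nt and 19 a single A. All 28 reads came from different wells of the sequencing chip that gave no other read of the gene. Since 1 replicate supplied nearly all reads, its gene tail of 1.81 nt has no replicate check.

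The listed host genes of snoRNAs had long tails. Many of these transcripts serve mainly to carry snoRNAs in their introns, and Gas5 and several Snhg genes begin with the terminal oligopyrimidine start of ribosomal protein mRNAs. Of 19 listed genes, 13 had reads, 149 in all. Their tails had a median of 137 nt over 53 reads of replicate 1 and 136 nt over 96 reads of replicate 2, 46 and 45 nt above the protein-coding medians. Tails over 150 nt made up 39.6% (27.6% to 53.1%) and 38.5% (29.4% to 48.5%) of their reads, against 16.1% and 15.3% of protein-coding reads, so the difference was larger than both the replicate spread and the counting error. Leaving out Gas5, the most read of them, gave a pooled median of 139 nt. Tails of 1 to 5 nt made up 1.89% (0.334% to 9.94%) and 7.29% (3.58% to 14.3%) of their reads in replicates 1 and 2, which were 1 and 7 reads, and 4 of the 8 came from Dancr. The list leaves out the hosts Rian and Snhg14, which stood on the nuclear list and have gene tails of 24.6 nt (18 reads) and 36.2 nt (6 reads), and Zfas1, which stood on none. With these 3 genes, added after their values were seen, the medians were 135 nt (61 reads) and 130 nt (123 reads), and 37.7% (26.6% to 50.2%) and 36.6% (28.6% to 45.4%) of tails were over 150 nt.

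The 4 listed host genes with at least 10 reads had gene tails above 75 nt, as did 5 of 6 with Rian and Zfas1 counted. Over all nuclear genes with at least 10 reads, 47.4% had a gene tail below 75 nt. Snhg1 had gene tails of 124 nt (6 reads) and 133 nt (17 reads) in replicates 1 and 2, or 128 nt ± 5.68 (SD, n = 2), and Snhg5 of 100 nt (3 reads) and 151 nt (10 reads). Epb41l4aos had 126 nt (6 reads) and 132 nt (4 reads). Gas5 had 93.9 nt (16 reads) and 89.6 nt (32 reads), with medians over its reads of 119 and 122 nt. Snhg3, Snhg8, Snhg12, Snhg17 and Snhg20, with 5 to 8 reads each, had medians of 142 to 162.5 nt. Snhg18 had 1 read of 46 nt. Snhg6 and Snhg15, with 6 and 9 reads, had medians of 99 and 130 nt, and Dancr (5 reads) of 2 nt. Zfas1 had 2 reads in replicate 1 (gene tail 60.3 nt) and 9 in replicate 2 (163 nt).

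The annotated 3′ ends of Gas5, Snhg1 and Snhg5 hold a poly(A) signal. The last 50 nt are shown for these genes and for 1700020I14Rik, with AATAAA or ATTAAA in capitals:
Gas5 (chr1:161038490-161038539, plus): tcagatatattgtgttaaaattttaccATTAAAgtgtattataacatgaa
Snhg1 (chr19:8726394-8726443, plus): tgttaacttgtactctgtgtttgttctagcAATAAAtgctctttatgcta
Snhg5 (chr9:88521050-88521099, minus): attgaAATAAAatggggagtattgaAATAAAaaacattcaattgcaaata
1700020I14Rik (chr2:119607453-119607502, plus): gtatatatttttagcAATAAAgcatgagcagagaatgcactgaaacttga

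Searched on the transcript strand in the last 50 nt of any annotated transcript of a gene, AATAAA or ATTAAA was found in 52 of the 57 lncRNA genes (91.2%), near the share in protein-coding genes (91.03% of 6754). The 5 genes without either had gene tails of 11.3 to 77.2 nt with a median of 64.9 nt, and the 52 genes with one 1.81 to 137 nt with a median of 81.0 nt. Malat1, AI506816 and Kcnq1ot1, with gene tails below 4 nt, were among the 52. A match is a description of these letters and does not show that the site was used.

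**Figure D3:**
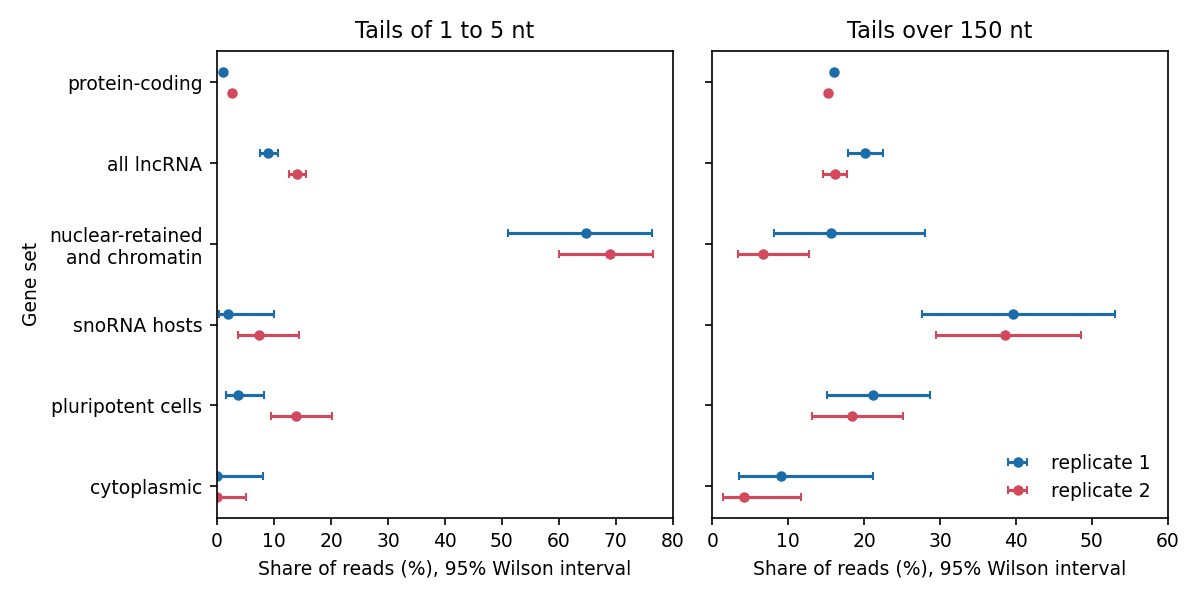
Share of reads (%, x axis) with tails of 1 to 5 nt (left) and over 150 nt (right) for protein-coding genes, all lncRNAs and 4 lncRNA lists (y axis), replicate 1 in blue and replicate 2 in red, with bars for 95% Wilson intervals. Of the sets drawn, nuclear-retained and chromatin lncRNAs have the highest shares on the left at 64.7% and 68.9%, or 20.0% and 34.0% without Malat1. The snoRNA host genes have the highest on the right at 39.6% and 38.5%. Host genes of microRNAs are not drawn.

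LncRNAs of pluripotent cells, among them the pluripotency-associated transcripts (Platr genes), had a median tail near that of mRNAs and more very short tails. Of 23 listed genes, 13 had reads and 7 at least 10. Their 295 reads had medians of 88 and 91 nt in replicates 1 and 2, and 4 of the 7 genes had a gene tail below 75 nt, where 47.4% of all nuclear genes did. Tails of 1 to 5 nt made up 3.65% (1.57% to 8.26%) and 13.9% (9.38% to 20.2%) of their reads, against 0.988% and 2.55% of protein-coding reads. Lncenc1 (chromosome 13, 97434970 to 97497007, plus strand), a lncRNA of naïve ESCs, was read 51 times in replicate 1 and 19 times in replicate 2, or 207 and 41.7 rpm, and had gene tails of 59.1 and 40.4 nt (49.8 nt ± 13.2, SD, n = 2). Platr4 had 68.6 nt (15 reads) and 56.5 nt (31 reads). In these 2 genes the median over reads was longer, 79 and 67 nt for Lncenc1 and 88 and 92 nt for Platr4, since 7 of 70 and 6 of 46 tails had 1 to 5 nt.

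The replicates of other Platr genes lay far apart. Platr10 had a gene tail of 115 nt in replicate 1 (15 reads) and 68.7 nt in replicate 2 (43 reads), while Platr14 had 72.4 nt (20 reads) and 108 nt (26 reads). Platr3 had 112 nt (16 reads) and 24.5 nt (9 reads, 3 of them of 1 to 5 nt), Platr7 73.5 nt (6 reads) and 119 nt (12 reads), and Platr27 85.3 nt (5 reads) and 62.7 nt (9 reads). For these genes the data do not settle on which side of 75 nt the gene tail lay. Eprn (ephemeron), a lncRNA that has been tied to the exit from naïve pluripotency and was not on the list, had 101 reads, and its gene tails of 71.1 nt (43 reads) and 79.6 nt (58 reads) also lay on both sides of that value (75.4 nt ± 5.97, SD, n = 2).

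Of 5 listed cytoplasmic lncRNAs, 2 had reads. They were 2900097C17Rik, the mouse Norad gene, whose RNA binds Pumilio proteins, and 1700020I14Rik, known as Cyrano, which directs the decay of the microRNA miR-7. They had no tail of 1 to 5 nt (0 of 115 reads, which allows a share of up to 2.61% by a limit of 3 reads, or 3.23% by the Wilson interval). Bc1, also known from the cytoplasm but not on this list, had 21 of its 51 tails at 1 to 5 nt. Cyrano had a gene tail of 84.0 nt (17 reads) and 72.4 nt (31 reads), or 78.2 nt ± 8.19 (SD, n = 2). Norad had 36.6 nt over 27 reads of replicate 1 and 58.5 nt over 40 reads of replicate 2, or 47.5 nt ± 15.5 (SD, n = 2). At most 30 nt were found in 16 of 27 Norad tails in replicate 1 and in 6 of 40 in replicate 2, so its length was not settled between replicates though it was below 75 nt in both.

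Norad (chr2:156388065-156392979, minus strand, 1 exon) also had the highest share of tails with a base other than A among lncRNA genes with at least 30 reads, 20 of 67 (29.9%). T, which stands for U in the RNA, ended 13 of its tails, and 9 of them ended in at least 2 T bases. They were 9 of 27 reads in replicate 1 and 4 of 40 in replicate 2. These tails had 12 to 96 nt, and 11 of the 13 had at most 30 nt. The 15 bases before and 10 after the annotated end (chr2:156388055-156388079) are shown with 6 tails. Capitals mark the letters AAAG, which cross the annotated end and open 8 of the tails, and the T bases at tail ends:
Norad genome: aaaagcttctttAAAGacttgggcg
Norad tail, 12 nt: aaaaaaaaaaaT
Norad tail, 15 nt: aaaaaaaaaaaaaTT
Norad tail, 18 nt: aaaaaaaaaaaaaaaTTT
Norad tail, 17 nt: AAAGaaaaaaaaaaaTT
Norad tail, 20 nt: AAAGaaaaaaaaaaaaaaTT
Norad tail, 23 nt: AAAGacaaaaaaaaaaaaaaaTT

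The G of the 8 tails that begin with AAAG matches the genome just past the annotated end, and they were seen in both replicates (3 and 5 reads). Without them, 12 of 59 Norad tails (20.3%) held a base other than A, and 8 of these ended in T. That share is below the 25.5% of Bc1, which was counted with all its tails, some of which also share letters with their gene. The rank of Norad thus depends on which tails are counted. The 23-nt tail goes on with ac, as the genome does there.

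Over all lncRNA reads, T at the tail end was most frequent in tails of 6 to 30 nt, as in protein-coding genes. In tails of 1 to 5 nt the last base was T in 3 of 393 lncRNA reads (0.763%) and in 1.999% of protein-coding reads. In tails of 6 to 15 nt the last base was T in 11 of 60 lncRNA reads (18.3%, 10.6% to 29.9%) and in 25.5% of protein-coding reads. In tails of 16 to 30 nt it was T in 30 of 172 (17.4%, 12.5% to 23.8%) and 13.7%. In tails of 31 to 60 nt the shares were 2.80% and 3.15%, and in tails over 150 nt 0.527% and 1.23%. Per replicate the share in lncRNA tails of 6 to 15 nt was 30.8% and 8.82%, and in those of 16 to 30 nt 18.9% and 16.3%. The lncRNA intervals held the protein-coding values in both of these classes, so no difference was detectable at this depth. The 44 T-ended tails of up to 30 nt came from 18 genes, led by Norad (11 reads), Gm46430 (6 reads, all in replicate 2), and Tug1, Cct6a and Bc1 with 3 each. Without Norad, 13.5% of tails of 16 to 30 nt ended in T.

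**Figure D4:**
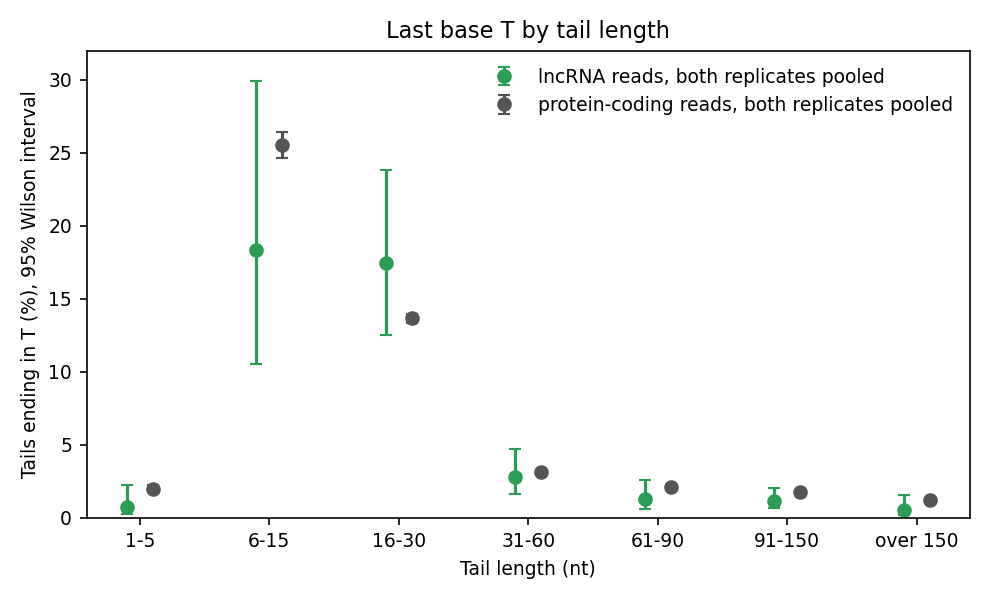
Share of tails that end in T (%, y axis) by tail length class (nt, x axis) for lncRNA reads (green) and protein-coding reads (grey), both replicates pooled, with bars for 95% Wilson intervals. The share is 18.3% and 17.4% for lncRNA tails of 6 to 15 and 16 to 30 nt, and 2.80% or less in the other lncRNA classes.

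Tails with any base other than A were somewhat rarer among lncRNAs, at 10.5% and 7.46% of reads in replicates 1 and 2, against 12.4% and 9.77% of protein-coding reads. The difference was -2.09 percentage points ± 0.315 (SD, n = 2), and the interval of replicate 1 (8.94% to 12.4%) reached the protein-coding value while that of replicate 2 (6.39% to 8.68%) did not. Tails of 1 to 5 nt, which are more frequent among lncRNAs, held such a base in 5 of 393 reads. Over tails of at least 6 nt of both replicates the lncRNA share was 9.63%, against 8.61% over all lncRNA tails. The protein-coding share over such tails was not computed, so how far very short tails account for the difference was not tested. Among the 57 genes, 20 (35.1%) had a base other than A in at least 10% of their tails, where 50.1% of all nuclear genes with at least 10 reads did. The genes were not matched by read number here either. After Norad with all its tails counted, the genes with the highest shares among those with at least 30 reads were Bc1 (25.5%), Gm46430 (14.7%), Lncenc1 (14.3%) and Platr4 (13.04%).

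Gene by gene, the lncRNAs had a wider range than their median shows. The median gene tail was 79.3 nt over the 21 genes with at least 10 reads in replicate 1, 71.7 nt over 36 genes in replicate 2, and 78.5 nt over 57 genes with both pooled. For protein-coding genes it was 77.1, 75.8 and 75.5 nt. The difference of 2.19 nt in replicate 1 and -4.06 nt in replicate 2 (-0.939 nt ± 4.42, SD, n = 2) changed sign between replicates. Of the 57 genes, 23 (40.4%) had a gene tail below 75 nt, where 47.4% of all nuclear genes tested did, and 11 (19.3%) had one over 100 nt, where 10.3% of all nuclear genes did. Per replicate, 38.1% and 52.8% of lncRNA genes were below 75 nt, against 44.6% and 48.6% of protein-coding genes, so the order of the classes changed. By the arithmetic mean per gene the lncRNA share was 17.5%, by the median 28.1%, and from tails of at least 6 nt 23.1%. Of the 57 lncRNA genes, 7 were below 30 nt and 4 over 120 nt, where 3.18% and 1.58% of all nuclear genes were. These shares were not matched by read number. Below 30 nt were, besides Malat1, Bc1, AI506816, Kcnq1ot1 and Rian, the genes Gm20939 and Gm7762. Over 120 nt were Snhg1, Snhg5, Epb41l4aos and Zfas1.

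Among the 19 genes with at least 10 reads in each replicate, 6 had a gene tail below 75 nt in both, 6 had one of at least 75 nt in both, and 7 lay on different sides. Of the 4286 nuclear genes with as many reads, 28.2% were below in both and 41.2% at or above in both. Gene tails in the replicates had a Spearman correlation of 0.683 across these 19 genes, and of 0.556 without Malat1 and Bc1. Both values come from libraries of unequal depth. The median difference between replicates was 12.0 nt, close to the 10.7 nt of 4018 protein-coding genes, and 14 of the 19 were longer in replicate 1. The longest were 2400006E01Rik (117 and 98.4 nt), 4930566F21Rik (103.9 and 95.03 nt), Gm10076 (106 and 94.3 nt) and 1810058I24Rik (98.0 and 94.4 nt). Gm32885 (76.9 and 77.3 nt) and Gm46430 (66.6 and 66.2 nt) hardly moved between replicates. Gm42047 had 78.4 and 45.4 nt, with all 7 of its tails of 1 to 5 nt in replicate 2, and BC023719 had 79.3 and 54.4 nt.

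**Figure D5:**
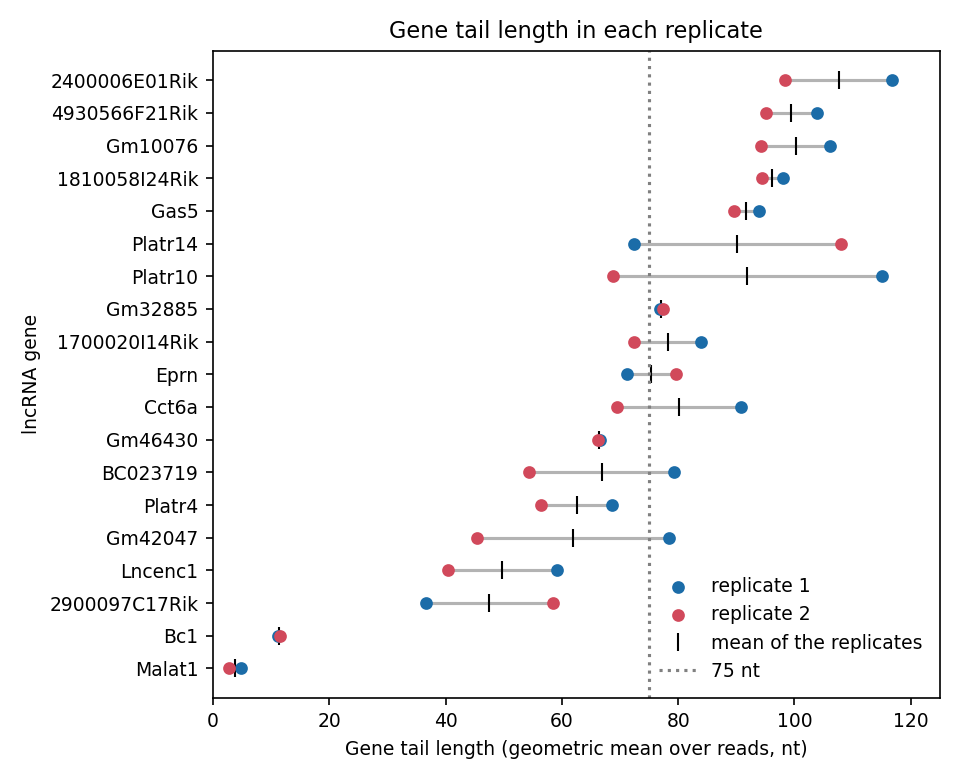
Gene tail length (geometric mean over reads, nt, x axis) in replicate 1 (blue) and replicate 2 (red) for the 19 lncRNA genes with at least 10 reads in each (y axis), with the mean of the replicates as a black tick and 75 nt as a dotted line. Malat1 and Bc1 sit below 12 nt in both replicates, 2400006E01Rik at 117 and 98.4 nt, and 7 genes have their replicates on different sides of 75 nt.

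Some of the most read lncRNA genes may stand for other genes. Gm10076 (chromosome 14, 105681828 to 105682211, plus strand, 1 exon), with 292 reads and a pooled gene tail of 97.1 nt, is 99.5% identical over 383 nt to a transcript of Rpl41, a ribosomal protein gene that itself had 49 reads and a gene tail of 82.6 nt, so reads of the pair could have been divided either way. Gm46430 shares 474 nt with Zfp825 at 96.2% identity, Gm40977 821 nt with Zfp934 at 98.2%, and Gm6712 501 nt with Zfp97 at 95.4%. Cct6a, with 286 reads and gene tails of 90.8 and 69.5 nt (80.15 nt ± 15.04, SD, n = 2), carries the symbol of a chaperonin subunit but is classed as a processed transcript in this annotation, as is the case for further genes with protein-coding names, Ifi30 and Trerf1, in its noncoding classes. Without these 3 and the 5 genes with shared sequence (Gm10076, Gm46430, Bc1, Gm40977 and Gm6712), the median gene tail stayed at 78.5 nt. Over reads of both replicates, the share of tails of 1 to 5 nt was then 14.8% against 12.2% with them. The median tail over reads was 86 nt against 89 nt, and the share with a base other than A 7.87% against 8.61%.

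Gene structure followed tail length only loosely. Across the 57 genes the Spearman correlation of gene tail with the longest annotated transcript was -0.250, with the number of exons 0.149 and with the number of reads -0.171. The 11 genes with 1 or 2 exons had a median gene tail of 66.2 nt, with 7 below 75 nt, and the 46 genes with more exons 81.0 nt, with 16 below. Without Malat1, AI506816, Kcnq1ot1 and Bc1 the medians were 73.6 nt (8 genes, 4 below 75 nt) and 81.7 nt (45 genes, 15 below), and the correlation with the number of exons was 0.0151. Genes that overlap another gene on the opposite strand (11) had a median of 75.5 nt and the others 78.7 nt.

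LncRNAs on the study's lists of genes that changed without Cnot8 were counted in the wild type. Their values describe only tails at 24 h with Cnot8 present. The list of genes raised in Cnot8 knockout 24h-EpiLCs held 11 lncRNA genes, with 27 on the list of lowered genes and 15 on that of Cnot8-dependent degradation. Of them, 1, 5 and 2 had at least 10 reads. The shares of all nuclear genes on these lists were not counted, and the study counted genes with a RefSeq annotation. The numbers therefore do not show whether lncRNAs were listed more or less often than other genes. Gm32885 (77.1 nt) was the one among the raised genes. Platr14 (90.7 nt), Rian (24.6 nt) and Snhg5 (137 nt) had the most reads among the lowered genes, and Lncenc1 (53.3 nt) and Platr7 (101 nt) were those of Cnot8-dependent degradation. The median tail over reads was 87.5, 90.5 and 93 nt on the 3 lists, beside 89 nt for all lncRNA reads. Host genes of microRNAs had 11 reads in 3 genes and none with 10 reads, and 6 of these reads had tails of 1 to 5 nt.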

How the data were processed

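PAIso-seq reads of 1 sample of wild-type cells at 24 h, with 2 barcoded replicates, were analysed. The authors made consensus reads with ccs, divided them by barcode, trimmed adapters and aligned them to mm10 with minimap2 2.17. The unaligned 3′ bases were taken as the tail, joined with A bases encoded next to them, and reads lacking a tail were dropped. The study's methods also name a filter that removes tails with fewer than 4 A among the first 8 bases. How it treated tails under 8 nt is not given, and tails of 1 nt are in the table (168 lncRNA reads). Genes were assigned with featureCounts 2.0.1, as the submitters' processing notes also name it. Each line of the deposited table is 1 read, with its barcode, gene, passes, the tail's base counts (A, T, C, G, and non-A) and the tail letters. These counts were not normalized.

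Tail length was the A count plus the non-A count of a read. Reads with at least 7 passes were used; 189 lncRNA reads had fewer. Gene types, coordinates and exons came from GENCODE vM21, and sequences from RefSeq's GRCm38.p6 genome, which is the build of the files. Identity to other genes was searched with BLAST 2.17.0 (at least 95% identity over at least 50% of a transcript). Values are given per replicate or as mean ± SD, with 95% Wilson intervals for shares. With 1 group there was no test of a condition and no p-value. A share that 3 reads would give was 0.249% of lncRNA reads in replicate 1 and 0.148% in replicate 2. Of the lncRNA reads, 236 came from chip wells that gave more than 1 read.

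Named genes were the 10 with most reads, the 8 longest and 8 shortest with at least 10 reads in each replicate, all list members with at least 10 reads, and the 5 with the largest shares of tails of 1 to 5 nt and of tails with a base other than A among genes with at least 30 reads. Of each study list, the 3 members with most reads were named. Genes outside this rule, such as AI506816 and the host genes with under 10 reads, were named after their values were seen. The members and lists were chosen with earlier results of these data known. Alternatives changed the pass filter, the length measure, the shortest tail, the gene summary, the read minimum, the members and the replicates. The gene summary was tested on simulated tails without a separate group of very short ones, and with no gene as short as Malat1. The test therefore does not cover the effect of very short tails on the summary. Calculations were run in Python 3.11.15 with pandas 2.3.3, numpy 2.4.6, matplotlib 3.10.9 and scipy 1.17.1, and with samtools 1.23.1.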

Additional observations from a re-analysis of the deposited data

How the results depend on the processing

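No paired analysis was possible because the sample had no other group beside it. Leaving out a replicate gave the values of the other: a median gene tail of 71.7 to 79.3 nt, a difference from protein-coding genes of -4.06 to 2.19 nt, 38.1% to 52.8% of genes below 75 nt, and a median over snoRNA host reads of 136 to 137 nt. Keeping only tails of at least 6 nt gave a median gene tail of 86.4 nt, a median over reads of 99 nt and 23.1% of genes below 75 nt. Summarizing each gene by the arithmetic mean or the median gave median gene tails of 101 and 98 nt, differences from protein-coding genes of 8 and 10 nt, and 17.5% and 28.1% of genes below 75 nt. Without Malat1, AI506816, Kcnq1ot1 and Bc1, a choice made after seeing the data, tails of 1 to 5 nt made up 8.02% of reads. The snoRNA host median, whose alternatives were also added later, was 130 nt with at least 15 passes, 130 nt with Rian, Snhg14 and Zfas1 added, and 139 nt without Gas5. The other alternatives moved no result by more than the SD of the replicates, among them no pass filter, the number of A bases, lincRNAs only, wells with 1 read, and other read minimums. The difference of the gene medians was below 0 in replicate 2 and in genes with at least 10 reads in each replicate (-0.480 nt). Depth limits the results for genes: 467 of 524 had fewer than 10 reads.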

Other observations

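LncRNA genes with fewer than 10 reads had more very short tails than those with at least 10. Tails of 1 to 5 nt made up 12.2% (9.39% to 15.8%) of their reads in replicate 1 and 21.3% (18.3% to 24.8%) in replicate 2, against 7.34% (5.73% to 9.35%) and 10.9% (9.43% to 12.7%) for genes with at least 10 reads. The single reads of 257 genes had a median tail of 80 nt. Sense intronic genes, which lie inside an intron of another gene, had medians of 57 nt and 7 nt in replicates 1 and 2, over 12 reads in all.

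Several lncRNAs were read unequally in the replicates, relative to the 35.1% of nuclear reads in replicate 1. Lncenc1 had 72.9% of its reads there, Bc1 68.6% and Platr3 64.0%, whereas Gm46430 had 22.1% and AI506816 3.57%.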
